A study of Caenorhabditis elegans with 5 samples.

Results

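Chemoreceptor genes found nearest to LIN-42 ChIP-seq peaks comprised 10 genes, srab-10, srab-12, sre-46, sre-47, srg-30, sri-10, srsx-38, srw-138, srw-83 and srx-118, among 338 genes that the study's annotation gives as closest to a LIN-42 region. The 10 genes accounted for 11 of the 412 annotated regions, since srab-12 was the closest gene of 2. They were taken because they belong to chemoreceptor families and because their regions held a peak in all 3 LIN-42 peak lists, so the presence of the peaks is a property of the choice and not a result. A gene is the closest one by distance only, and nothing here measured its expression.

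LIN-42 is the C. elegans relative of the PERIOD proteins, which act in the circadian clocks of flies and mammals as repressors of transcription; in the worm it acts in developmental timing, and its own expression pulses with the molting cycle. The chemoreceptor genes of C. elegans form one of the largest gene groups in its genome. They encode heptahelical membrane receptors coupled to G proteins, are named by subfamily (sra, srab, sre, str, srw and many more), and many that have been examined are active in a few sensory neurons each. The subfamilies are grouped into the Sra, Str and Srg superfamilies and a remainder of solo families, and many members lie side by side in tandem arrays. No ligand or cellular role is given below for any single receptor, since none is known with confidence for these 10.

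The study profiled LIN-42 by ChIP-seq in late L4 larvae of 1 strain, HML214, which carries a functional GFP-tagged lin-42 transgene and was raised at 20 °C. An antibody against GFP gave LIN-42::GFP replicates 1 and 2, from separate extracts. An antibody against LIN-42 itself gave 1 library of endogenous LIN-42, with no replicate, whose label names the same tagged strain. The study places the peptide used to raise this antibody in the predicted LIN-42A and LIN-42B isoforms, and does not name the LIN-42C isoform there. The study's methods describe either antibody as used to precipitate the tagged LIN-42. Endogenous is therefore only the name of that list, and tagged and untagged LIN-42 cannot be told apart in it. The 5 samples also include 2 inputs, chromatin that was not immunoprecipitated, which enter only as the controls named in the 2 LIN-42::GFP lists. Whole animals were extracted, so binding in more cells and stronger binding per cell cannot be told apart, and no peak can be placed in a sensory neuron or any other cell.

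Few distinct tags lay behind any of these peaks. After redundant tags were removed, 38236 tags were left of 833169 in LIN-42::GFP replicate 1, 43991 of 4334100 in replicate 2 and 122089 of 2268716 for endogenous LIN-42, so that 95%, 99% and 95% of the aligned tags had been discarded as repeats of a position. The lists held 946, 2580 and 1128 peaks. The smallest peak held 4 tags in each LIN-42::GFP list and 5 in the endogenous list. Tags in a peak are given below with 95% exact Poisson intervals where a comparison rests on them, and those intervals cover counting error only.

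All 11 chemoreceptor regions were the union of 1 peak of each LIN-42::GFP replicate, and each was overlapped by 1 endogenous peak, by 1 bp or more. Over all regions, 318 of 412 (77.2%) held a peak in all 3 lists, and 395 of the 946 replicate 1 peaks (41.8%) overlapped a replicate 2 peak. Both shares are given as background to the count of 11, from which nothing is read because the overlap chose the regions. The 307 remaining regions with a peak in all 3 lists are called the other regions below. One further chemoreceptor gene, srz-3 on chromosome I, was annotated as closest to a region and fell outside the set. Its replicate 1 peak (chrI:8185356-8185474, 5 tags) and replicate 2 peak (chrI:8185692-8185810, 4 tags) were 217 bp apart and did not overlap, and the nearest endogenous peak lay 5311 bp away. Among the members, the smallest overlap of a peak with its region was 96 bp, for the endogenous peak at srab-10. At these depths a region without a peak was not detected and is not shown to be unbound.

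The Sra superfamily contributed 4 of the 10 genes, sre-46, sre-47, srab-10 and srab-12. In the WBcel235 annotation, which was used for gene names, family sizes, chromosomes, lengths and neighbours, this superfamily has 124 of 1309 chemoreceptor genes (9.47%). The Str superfamily, with 588 genes (44.9%), contributed sri-10 alone, and its largest subfamilies, srh with 220 genes and str with 193, contributed none. The Srg superfamily (309 genes, 23.6%) contributed srg-30 and srx-118, and the solo families (288 genes, 22.0%) contributed srw-138, srw-83 and srsx-38. With 10 genes these shares are coarse. With srz-3 included, chemoreceptor genes were 11 of the 291 coding genes closest to a region (3.78%), against 1309 of 19983 coding genes in WBcel235 (6.55%).

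The sre genes stood apart from the other chemoreceptor genes in the shape of their peaks. The sre-47 region (ce10 chrII:13985479-13986103) was annotated as a coding gene promoter with its centre 1213 bp from the start site. It held 18 tags in replicate 1 (95% interval 10.7 to 28.4), 25 in replicate 2 (16.2 to 36.9) and 74 for endogenous LIN-42 (58.1 to 92.9). The endogenous count was the highest of the 11 regions, and 96.5% of the peaks in that list held fewer tags. Its peaks were also the widest of the 11, at 378, 625 and 1205 bp in replicate 1, replicate 2 and the endogenous list. The fold enrichment at the summit, which MACS gives relative to its estimate of background without saying whether that came from the input at that place, was 19.51, 18.87 and 11.34, the lowest of the 11 regions in each list. The endogenous peak extended 595 bp past the end of the region on one side, and a separate endogenous peak of 22 tags (chrII:13984949-13985412, fold 8.09) began 67 bp beyond the other edge.

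The sre-46 region (chrII:13721738-13722218), annotated as a promoter 729 bp from the start site, had the second-widest peaks. It held 10 tags in replicate 1, 16 in replicate 2 and 28 for endogenous LIN-42 (18.6 to 40.5), in peaks of 197, 467 and 440 bp. The upper quartiles of width over the other regions were 333.5, 318.5 and 467.5 bp in the same order. Every sre-47 peak was wider than these, but at sre-46 only the replicate 2 peak was. The replicate 1 peak covered 197 of the 481 bp of the region, and the extra width in the other 2 lists lay on one side of a shared summit. Shares of all tags kept in a library were compared for whole peaks. Only at sre-47, of the 11 regions, did the endogenous share exceed that of both LIN-42::GFP replicates (ratios 1.29 to replicate 1 and 1.07 to replicate 2). The endogenous peak there was 1205 bp wide, against 378 and 625 bp in replicates 1 and 2. These ratios therefore do not compare signal per base. For sre-46 these ratios were 0.877 and 0.631. The remaining 9 regions ranged from 0.251 to 0.626 against replicate 1 and from 0.18 to 1.08 against replicate 2, where the value of 1.08 belonged to srx-118 and rested on 4 replicate 2 tags. The median ratios over the 11 regions were 0.458 and 0.489, against 0.418 and 0.459 over the other regions.

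The srab genes carried 3 regions. srab-12 had 2 regions, both annotated as promoters, 251 bp (chrV:17783772-17783958) and 1473 bp (chrV:17785024-17785149) from its start site. Their centres were 1221.5 bp apart and their start-site distances differed by 1222 bp, which puts both on the same side of the start site. The region at 251 bp held 10, 13 and 9 tags in replicate 1, replicate 2 and the endogenous list, and the region at 1473 bp held 8, 6 and 13. The order of the 2 regions was thus turned round between the LIN-42::GFP lists and the endogenous list, but the intervals overlapped in every list (in replicate 2, 6.92 to 22.2 at 251 bp and 2.2 to 13.1 at 1473 bp). The spacing between their summits was 1252, 1222 and 1279 bp. The srab-10 region (chrV:3143027-3143150) held 9, 8 and 9 tags, among the most even raw counts of the set. Per 10000 tags kept in each library these were 2.35, 1.82 and 0.737, so the counts were even only before scaling. Its summits lay within 2 bp of each other in all 3 lists. The srab-10 region was annotated as downstream of the gene at 1474 bp from the start site. The annotation's distance to the gene itself is given as -1474, a sign that its sources used here do not explain. The gene is 1501 bp long in WBcel235, longer than that distance, so the downstream label is at odds with it. The source of this difference was not tested.

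The Srg superfamily held the highest and one of the lowest regions among the LIN-42::GFP replicate 1 counts. The srg-30 region (chrV:6718863-6719002), a promoter region 652 bp from the start site, held 20, 14 and 19 tags in peaks of 133, 140 and 102 bp. Its replicate 1 fold of 447.69 was the highest of the 11, above 96.4% of that list, and its endogenous fold of 83.77 was above 94.4%, while its replicate 2 fold of 50.92 was above only 17.1%. The srx-118 region (chrII:12527806-12528032), annotated as downstream at 1 bp from the gene and with its centre 2154 bp from the start site, held 6, 4 and 12 tags. The gene is 2139 bp long in WBcel235. By that length, a region 227 bp wide around that centre would reach into the gene. The source of this difference was not tested. The 4 tags of replicate 2 (1.09 to 10.2) are the smallest number that list holds, and their score of 63.04 (the p-value of the caller as -log10, multiplied by 10) was the lowest among the 33 peaks of the set, next above the limit of 50 that a p-value of 1e-05 gives.

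The solo families gave 3 regions inside or downstream of their genes. The srw-83 region (chrV:18430906-18431085), downstream of the gene at 396 bp from it and 4443 bp from the start site, held 12, 22 and 11 tags. Its replicate 2 count (13.8 to 33.3) was second only to sre-47 among the 11 regions, and its replicate 2 fold of 288.06 was above 99.2% of the replicate 2 list. The srw-138 region (chrV:2962907-2963032) overlapped exon 4 of 4 and lay 89 bp from the annotated start site, the shortest distance of the set; the exon number therefore does not count from that start site. It held 5, 4 and 9 tags, the lowest replicate 1 count of the 11 and, with srx-118, the lowest of replicate 2. The srsx-38 region (chrV:15807325-15807459), annotated as in intron 1 of 6 and 2664 bp from the start site, held 13, 15 and 19 tags. As at srw-138, the annotated number need not count from the start site. Its endogenous fold of 87.0 was the highest of the 11 regions, above 95.7% of that list, and its replicate 2 fold of 49.32 was above 15.7%.

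The Str superfamily gave sri-10, whose region (chrV:18804125-18804251) was annotated as in intron 6 of 6, 2293 bp from the start site. Here too the intron number need not count from the start site. The sri-10 region held 10, 6 and 8 tags in peaks of 121, 127 and 98 bp, and its 3 summits fell within 1 bp of each other. Folds were equal at some peaks of equal tags. The replicate 1 fold was 242.66 at both sri-10 and the srab-12 region at 251 bp, each with 10 tags, and the replicate 2 fold was 123.99 at both sri-10 and the srab-12 region at 1473 bp, each with 6. The wider sre-46 peak, also with 10 tags in replicate 1, had a fold of 49.61. In replicate 2 the fold did not follow the tags even among narrow peaks, since srsx-38 (15 tags, 135 bp) and srg-30 (14 tags, 140 bp) had folds of 49.32 and 50.92, below the 123.99 of the peaks with 6 tags.

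**Figure D1:**
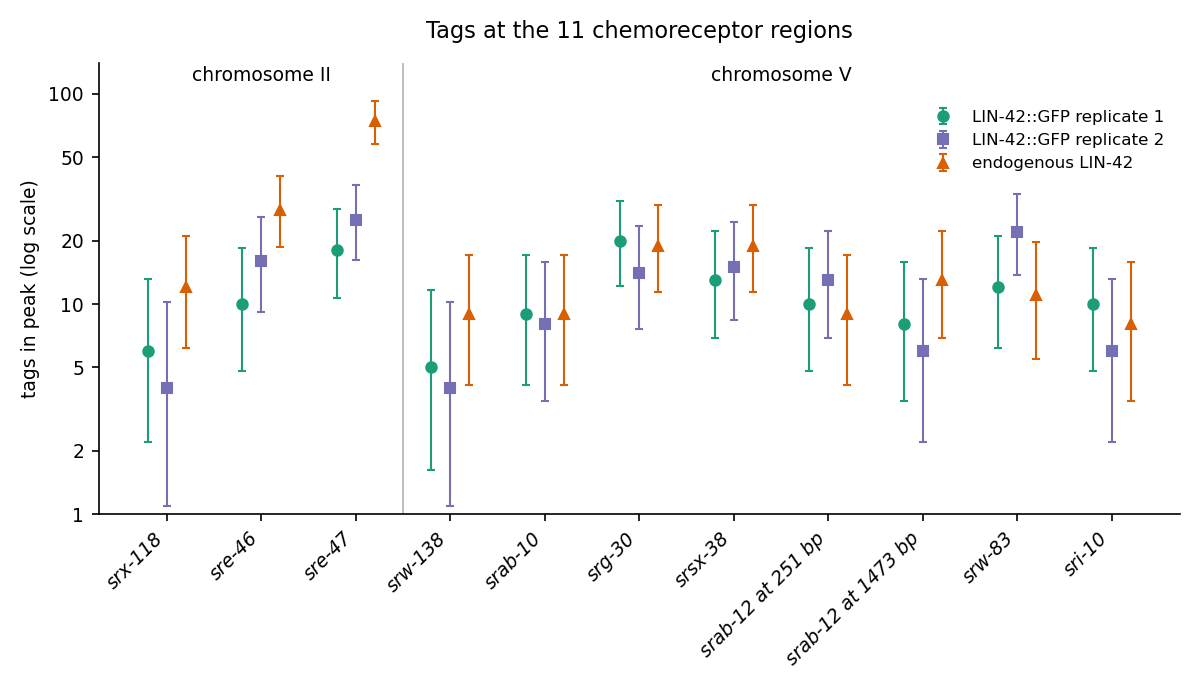
Tags in the peak of each list at the 11 chemoreceptor regions, on a log scale, ordered along chromosomes II and V; points are counts and bars are 95% exact Poisson intervals. The endogenous count of 74 tags at sre-47 stands above the rest, and most intervals of the 3 lists overlap at a given region. Counts are raw and not scaled to the tags kept, which were 38236 in replicate 1, 43991 in replicate 2 and 122089 for endogenous LIN-42. Overlap of the intervals therefore does not show equal signal between lists.

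Set against the other regions, the chemoreceptor regions were ordinary in tags. Replicate 1 tags ranged from 5 to 20 with a median of 10, against a median of 13 (quartiles 8 and 21) over the other regions. Replicate 2 tags ranged from 4 to 25 with a median of 13, against 13 (8 and 24). Endogenous tags ranged from 8 to 74 with a median of 12, against 17 (10 and 37). In each list the median of the 11 lay inside the quartiles of the other regions, and no chemoreceptor region came near the highest of those, which held 189, 165 and 580 tags. Median fold was 218.39, 59.95 and 59.52 at the chemoreceptor regions in replicate 1, replicate 2 and the endogenous list, against 145.6, 63.63 and 50.13 at the other regions. No test was made of any of these differences, since the regions were chosen from the same lists.

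The order of the regions by tags was shared in part between the lists. Across the 11 regions, Spearman's rho of the tags was 0.82 between the LIN-42::GFP replicates, 0.52 between replicate 1 and the endogenous list and 0.619 between replicate 2 and the endogenous list. Over the 307 other regions it was 0.692, 0.733 and 0.667. These values are descriptions, and the points share the requirement of a peak in every list.

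Many chemoreceptor peaks were narrow. The model fragment size of MACS was 97, 99 and 84 bp in replicate 1, replicate 2 and the endogenous list, and a peak cannot be much narrower than that, so the width beyond it measures how far its tags were spread. At 8, 6 and 6 of the 11 chemoreceptor regions (72.7%, 54.5% and 54.5%) the peak exceeded the fragment size by 50 bp or less, against 48.9%, 41.0% and 46.6% of the other regions. Over all peaks of each list the shares were 50.6%, 73.8% and 31.8%, so in replicate 2 the share was lower at the chemoreceptor regions than in the list as a whole. In the endogenous list, srab-10 had 9 tags in a peak only 12 bp wider than the fragment size, sri-10 had 8 tags in 14 bp, and srg-30 and srw-138 had 19 and 9 tags in 18 bp. The sre-47 peak was 1121 bp wider. Median widths were 126, 140 and 131 bp at the chemoreceptor regions and 149, 164 and 151 bp at the other regions.

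**Figure D2:**
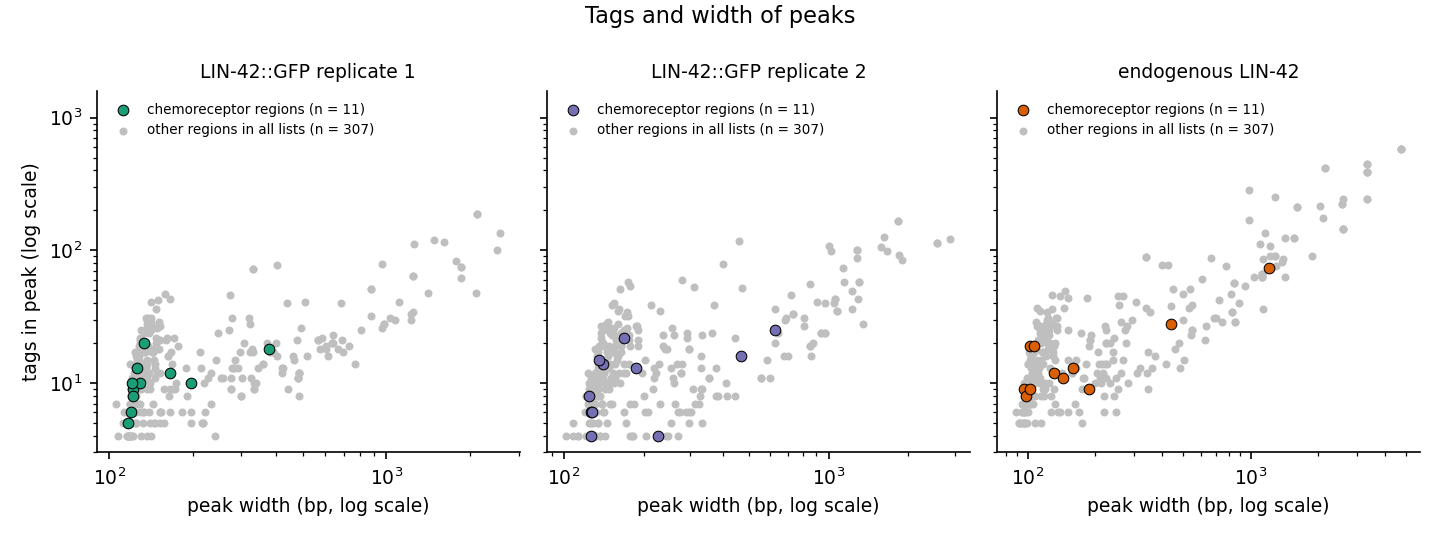
Tags against peak width, both on log scales, in each list, with the 11 chemoreceptor regions as large coloured points and the 307 other regions in grey. Most chemoreceptor peaks lie at the narrow end, with medians of 126, 140 and 131 bp, and the sre-47 peak of 1205 bp and 74 tags lies apart from them in the endogenous panel.

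Summits of the 3 lists fell close together at 10 of the 11 regions. The summit is the base at which the tags of a peak pile up highest. The largest distance between any pair of the 3 summits was 1 bp at sri-10, 2 bp at srab-10 and srg-30, 3 bp at srsx-38 and 4 bp at srw-138. It was 14 bp at srw-83, 18 bp at srx-118, 28 and 29 bp at the srab-12 regions and 29 bp at sre-46. At sre-47 the LIN-42::GFP summits were 26 bp apart, but the endogenous summit lay 217 bp from that of replicate 1 and 191 bp from that of replicate 2, within the widest peak of the set. A largest distance of 10 bp or less was found at 5 of 11 chemoreceptor regions (45.5%) and 130 of 307 other regions (42.3%), and one of 30 bp or less at 10 of 11 (90.9%) and 208 of 307 (67.8%). The median distance was 3, 3 and 4 bp for replicates 1 and 2, replicate 1 and endogenous, and replicate 2 and endogenous, against 9, 7 and 8 bp over the other regions. Narrow peaks leave little room for summits to differ, and the part of peak width in these distances was not tested. Each chemoreceptor region had 1 peak per list. Where a list had several peaks in an other region, the one with most tags was taken, so the summits compared there could belong to separate peaks. The part of this in the distances was not tested either.

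**Figure D3:**
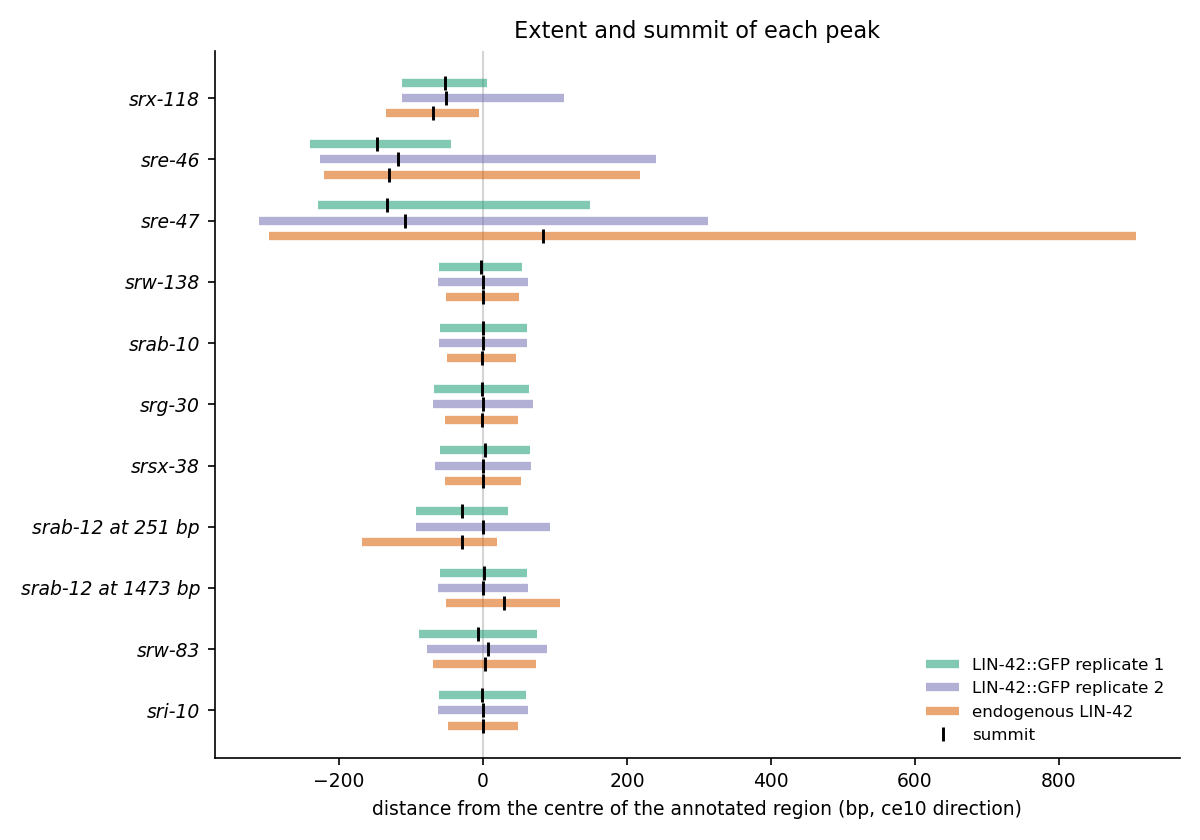
Extent of each peak (bars, coloured by list) and its summit (black ticks) at the 11 regions, in bp from the centre of the annotated region along ce10. The 3 summits align within 30 bp at every region except sre-47, where the endogenous peak is 1205 bp wide and its summit lies 217 bp from that of replicate 1.

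By annotated class, 5 of the 11 regions (45.5%) were promoters (both sre genes, both srab-12 regions and srg-30), 3 (27.3%) were downstream (srab-10, srw-83 and srx-118), 2 (18.2%) were intronic (sri-10 and srsx-38) and 1 (9.09%) was exonic (srw-138). Of 339 other regions closest to coding genes, 130 (38.3%) were promoters, 104 (30.7%) downstream, 97 (28.6%) intronic and 8 (2.36%) exonic. The study describes promoters as 2000 bp upstream of a gene. Some of the other regions labelled promoter lay farther from the start site, for example at 13288 and 13979 bp. The median distance to the start site was 1473 bp (range 89 to 4443) at the chemoreceptor regions and 2665 bp (79 to 25897) at the other regions at coding genes. It was 2000 bp or less for 7 of 11 (63.6%) and for 125 of 339 (36.9%). The listed WBcel235 lengths of the chemoreceptor genes ran from 1255 bp for sre-47 to 3958 bp for srw-83, and the share of gene length in these distances was not tested. For srsx-38 the 2664 bp to the start site exceeded the 1611 bp of the gene in WBcel235, although its region was annotated as intronic, a difference whose source was not tested.

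**Figure D4:**
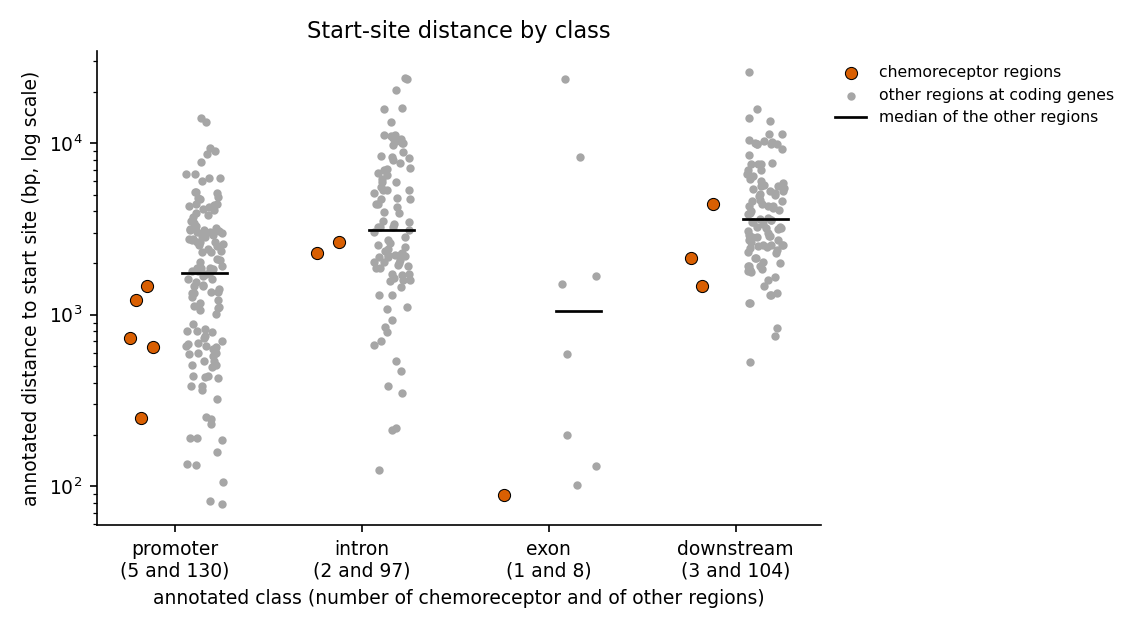
Annotated distance from the region centre to the start site, on a log scale, by class, for the 11 chemoreceptor regions (orange) and the 339 other regions at coding genes (grey, with their median as a line). The 5 promoter regions of chemoreceptor genes lie between 251 and 1473 bp and the exonic srw-138 region at 89 bp.

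All of the chemoreceptor regions lay on chromosomes II and V. Chromosome II carried 3 regions at 3 genes (srx-118, sre-46 and sre-47) and chromosome V carried 8 regions at 7 genes. Of all 412 regions, 41 were on chromosome II and 93 on chromosome V. The same chromosomes carry most of the family, with 169 (12.9%) of the 1309 WBcel235 chemoreceptor genes on II and 888 (67.8%) on V, whereas chromosome IV, with 153 genes (11.7%), had no chemoreceptor region. Along the span between the first and last peak of a chromosome, 10 of 11 regions (90.9%) lay in the first or last 25%, against 63 of 91 other regions on II and V (69.2%). On II the 3 regions were at 82.1% (srx-118), 89.9% (sre-46) and 91.6% (sre-47) of the span. On V, srw-138 and srab-10 were near the left end at 14.2% and 15.0%, the srab-12 regions, srw-83 and sri-10 near the right end at 85.0% to 89.9%, srsx-38 at 75.6%, and srg-30 alone lay further in, at 32.1%.

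The 10 genes ranged from the inside of a chemoreceptor array to places with no chemoreceptor neighbour. Of the 5 nearest coding genes on each side in WBcel235, all 10 were chemoreceptors for srw-138 (7 of them srw genes), 8 for srab-12 (mostly srh genes, and no srab gene) and 6 for srx-118, with srx-119 and srx-120 among them. For srab-10 there were 4, all of its own subfamily (srab-6, srab-7, srab-9 and srab-11). srsx-38 had 2 (srsx-36 and srd-27), srw-83 had 2 (srw-82 and srj-26) and sre-47 had 1 (sre-48). sre-46, srg-30 and sri-10 had none. None of these chemoreceptor neighbours was the closest gene of an annotated region.

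Few other peaks lay nearby. Within 20 kb of the 11 regions there were 13 further peaks besides those of the regions themselves, 4 in replicate 1, 7 in replicate 2 and 2 in the endogenous list. No such peak was found near sre-46, srab-10 or the srab-12 regions. Of the 13, 12 held 4 to 6 tags, at or near the smallest number that each list holds, and the exception was the endogenous peak of 22 tags beside sre-47. At sri-10, replicate 2 alone had a peak of 5 tags 544 bp away. At srw-83, replicate 2 alone had a peak of 6 tags 3580 bp away. Near srg-30, a replicate 1 peak of 5 tags at 6505 bp and a replicate 2 peak of 4 tags at 6498 bp overlapped each other and form the annotated region of ZC487.3, which had no endogenous peak. With the srab-12 regions counted as neighbours of each other, a chemoreceptor region had a median of 2 further peaks within 20 kb (0 to 3), against 2 (quartiles 1 and 5, at most 32) for the other regions.

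**Figure D5:**
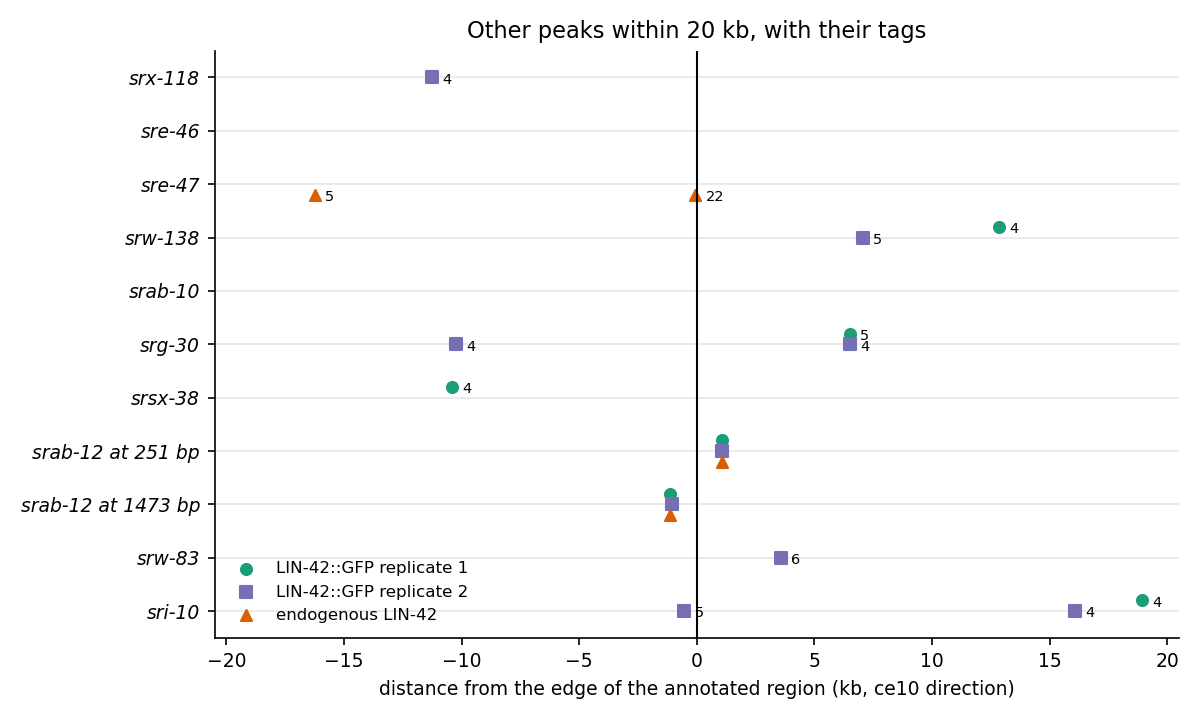
Peaks of each list within 20 kb of a chemoreceptor region that do not overlap it, by distance from the edge of the region in kb, with tags beside each point; the 6 points without a number are the peaks of the srab-12 regions seen from each other. Of the 13 numbered peaks, 12 hold 4 to 6 tags, and the endogenous peak 67 bp from sre-47 holds 22.

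Genes that act with chemoreceptors in sensory neurons were also looked up. Of a list of 39 genes of chemosensory signalling and of sensory neuron identity (G protein subunits, guanylyl cyclases, channels, transport factors and transcription factors), 1 (2.56%) was a closest gene, beside 291 closest genes for the 19983 coding genes of WBcel235 (1.46%), and nothing is read from a count of 1. This was ceh-37, which encodes an Otx-type homeodomain factor that acts in the AWB olfactory neurons. Its region on chromosome X, annotated as downstream at 15913 bp from the start site, held 19 tags in replicate 1 (chrX:14193177-14193353), 23 in replicate 2 (chrX:14192990-14193320) and 20 for endogenous LIN-42 (chrX:14193172-14193303), more than most of the chemoreceptor regions.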

How the data were processed

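The authors aligned reads to ce10 with Bowtie2 (version not given in the sources used here), kept uniquely aligned reads and called peaks in each library with MACS, version 1.4.2 in the file headers, at a p-value of 1e-05. The deposited tag count of a peak is raw, with repeats of a position removed. The deposited score is the p-value as -log10, multiplied by 10. The deposited fold is the ratio of tags at the summit to the MACS background. The header of the endogenous list names no control, whereas the study's methods state that all peaks were called against input, so what its folds and scores are relative to is not settled. The false discovery rate in percent was deposited for LIN-42::GFP only.

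Class, closest gene and start-site distance come from the study's annotation of 412 regions, whose distances run from the region centre. Peaks were joined to regions by an overlap of 1 bp or more, and other peaks by an edge within 20 kb. Where several peaks of a list overlapped a region, the peak with most tags was used. A wide peak could serve more than 1 of the other regions. Names, family sizes, chromosomes, gene lengths and the order of neighbours come from RefSeq genes of WBcel235, where all 10 symbols matched; none of its coordinates are printed. The members and lists were chosen with earlier results of these data known, so no test was run; all members are named, and any other gene only where it falls in a list or a neighbourhood described. Of the joins, only the overlap was tested, with simulated regions placed on and between the deposited peaks of replicate 1. The alternatives changed the overlap, summit distance, p-value, false discovery rate, replicates, tag scaling, summit definition, promoter definition, window and chromosome span. Joins and medians were computed with pandas 2.3.3 and NumPy 2.4.6 under Python 3.11.15, intervals with SciPy 1.17.1, and plots with Matplotlib 3.10.9. Reads and signal tracks were not analysed here.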

Additional observations from a re-analysis of the deposited data

How the results depend on the processing

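A false discovery rate of 5% or less, which acts on replicate 2 alone, left all 10 genes and 11 regions (and 95.3% of all 318 regions). Without replicate 1 or without replicate 2 the counts were 10 to 10 genes and 11 to 11 regions, as the choice of members fixes, so this says nothing about stability. With peak and region each covering 50% of the other, 8 genes (9 regions) were left, without sre-46 and srx-118. With summits within 200 bp, 9 genes (10 regions) were left, without sre-47. Where every peak had to reach a p-value of 1e-10, 8 genes (8 regions) were left, without srx-118, srw-138 and the srab-12 region at 251 bp. Of the same 318 regions, 73.3%, 80.2% and 69.2% were left under the last 3 settings. Per 10000 kept tags, the median tags of the 11 regions were 2.62 in replicate 1, 2.96 in replicate 2 and 0.983 for endogenous LIN-42, a change of scale only. The 13 other peaks within 20 kb became 6 within 10 kb and 45 within 50 kb. Counts of 4 to 25 LIN-42::GFP tags limit any order among the regions. The lists were paired by region in the ratios, correlations and summit distances, and no paired test was made.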

Other observations

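The false discovery rates of the 11 replicate 2 peaks ran from 0.19% at srw-138, whose score was 98.76, to 1.92% at srw-83, whose score of 478.86 was the highest of the 11. The rate thus rose with the score, that is with a smaller p-value, except that srx-118, at the lowest score of 63.04, had a rate just above that of srw-138. Between these, sre-46 and srx-118 had 0.2%, sre-47 had 0.45%, srg-30 had 1.03% and srsx-38 had 1.46%. The rate was listed as 0 for every peak of replicate 1. The headers of these lists name the input controls by numbers that the sample labels do not give in the same form, so which input served which replicate could not be settled.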
